A study of Mus musculus with 183 samples.

Results

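RNA sensing and interferon response genes were examined in mouse embryonic stem cells (mESCs) whose cytoplasmic 3′–5′ RNA decay had been altered. The group holds 9 genes of the 53380 in the deposited count table. They were chosen by name, with earlier results of these data known. Its members are the RNA sensors Ddx58 and Ifih1, the adaptor Mavs and the transcription factors Irf3 and Irf7. The others are the interferon-stimulated genes Isg15, Ifit1 and Ifit3, and the stress sensor Ern1. RNA was counted in 47 libraries of 2 cell lines, clone 5F with the genotype Rosa26Cre-ERT2/- Skiv2l fl/fl, and clone 7E with Rosa26Cre-ERT2/BirA-V6, Skiv2l 3xFLAG-Avi and Aven-/-. The half-life labels of clone 7E give no floxed allele, whereas the study's methods give Skiv2l as floxed in that line as well, and those methods spell the BirA allele BirA-V5 where the labels have BirA-V6. Both lines were sampled at day 0 and at day 4 of 0.1 µM 4-hydroxytamoxifen (4OHT), which activates the CreERT2 recombinase. Cells were taken after 6 h of the solvent DMSO (mock) or after 120, 240 or 360 min of actinomycin D, which blocks transcription. The labels give the actinomycin D dose as 5 µg per µl, whereas the study's methods give 5 µM. Each of the 16 groups had 3 libraries except clone 5F at day 0 and 120 min, which had 2. Each genotype is represented by 1 clone and the study calls the replicates technical, so the p-values measure the spread between these libraries and not that between independent cultures. The clone, the Aven genotype, the Skiv2l tag and the BirA allele at Rosa26 cannot be told apart in any comparison between the lines.

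The proteins of this group form a relay. DDX58 (RIG-I) and IFIH1 (MDA5) bind double-stranded or 5′-triphosphate RNA in the cytoplasm and assemble MAVS on mitochondria, kinases then activate IRF3 and IRF7, and these switch on type I interferons, whose receptors in turn induce genes such as Isg15 and the Ifit family. ERN1 (IRE1α) senses unfolded protein in the endoplasmic reticulum, and its ribonuclease splices Xbp1 mRNA and can produce RNA fragments that RIG-I recognizes. SKIV2L, the helicase of the cytoplasmic exosome, is known to restrain RIG-I-like receptor signalling in other cells, and mESCs are known for a weak interferon response.

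The interferon-stimulated members share a regulatory sequence, which is shown here because their transcripts were near the detection limit in every library. The 250 bases before the RefSeq start of 4 members (GRCm38.p6) are printed 5′ to 3′, and capitals mark matches on either strand to GAAANNGAAA, the core of the interferon-stimulated response element to which IRF and STAT factors bind. Adjacent matches can overlap.
Isg15 (chr4:156200819-156201068, minus strand): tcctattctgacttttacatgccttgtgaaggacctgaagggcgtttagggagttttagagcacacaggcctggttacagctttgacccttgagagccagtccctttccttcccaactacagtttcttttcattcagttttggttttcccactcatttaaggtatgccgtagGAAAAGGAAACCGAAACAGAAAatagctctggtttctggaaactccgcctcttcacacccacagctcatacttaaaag
Ifit1 (chr19:34640639-34640888, plus strand): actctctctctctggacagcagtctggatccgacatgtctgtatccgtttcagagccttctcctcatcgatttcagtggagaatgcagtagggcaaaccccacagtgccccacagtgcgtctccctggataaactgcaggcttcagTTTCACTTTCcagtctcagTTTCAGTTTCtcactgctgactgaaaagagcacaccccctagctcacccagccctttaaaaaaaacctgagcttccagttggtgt
Ifit3 (chr19:34583279-34583528, plus strand): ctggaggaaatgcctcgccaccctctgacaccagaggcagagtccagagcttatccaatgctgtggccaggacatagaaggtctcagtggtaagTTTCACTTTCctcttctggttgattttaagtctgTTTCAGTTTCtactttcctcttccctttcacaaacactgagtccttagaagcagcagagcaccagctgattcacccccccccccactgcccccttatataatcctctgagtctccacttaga
Mavs (chr2:131233813-131234062, plus strand): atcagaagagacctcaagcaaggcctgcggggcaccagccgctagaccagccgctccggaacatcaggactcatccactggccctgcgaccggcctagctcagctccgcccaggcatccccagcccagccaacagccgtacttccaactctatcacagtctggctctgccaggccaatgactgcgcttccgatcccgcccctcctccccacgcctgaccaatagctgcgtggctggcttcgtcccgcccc
All 9 members were found in the RefSeq promoter table. Over the full window of 300 bases, which ends 50 bases after the start, Isg15 had 3 matches, whose first bases lie at -78, -72 and -66. Ifit1 had 2 (-104 and -85) and Ifit3 had 2 (-156 and -122). Ddx58 and Ifih1 had 1 match each, downstream of the start (from base 3 and base 33), and Mavs, Irf3, Irf7 and Ern1 had none. A match was present in 3.44% of 32851 mouse promoter windows of this length, and 2 or more matches in 0.225%.

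The sequencing depth was similar between libraries, with 24540658 to 34208466 counts each. The 6 embryonic stem cell markers, among them Pou5f1, Nanog and Sox2, summed to 60052 to 73536 normalized counts in the mock libraries. In clone 5F they went from 64387 to 65765 at day 0 to 60052 to 63672 at day 4. In clone 7E they went from 70422 to 73536 at day 0 to 60482 to 62985 at day 4. In clone 5F 2 of the 6 genes rose and 2 fell (edgeR adjusted p under 0.05), against 12.8% and 11.6% of all genes tested. In clone 7E 0 rose and 5 fell, against 20.7% and 19.4%. Endoderm markers (Gata4, Gata6, Sox17, Foxa2 and Dab2) summed to 2867 to 3086 at day 0 and 2304 to 2374 at day 4 in clone 5F, and to 335 to 397 and 456 to 488 in clone 7E, without overlap between the days in either clone. By the same test 1 of these 5 genes rose and 2 fell in clone 5F, and 1 rose and 0 fell in clone 7E. Foxa2 went from 179 ± 11.6 to 240 ± 14.5 in clone 5F and from 79.0 ± 11.2 to 195 ± 11.5 in clone 7E (SD, n = 3). Dab2 went the other way in both, from 1028.5 ± 72.2 to 588 ± 32.8 and from 126 ± 0.936 to 104 ± 11.6. Its fall in clone 7E was not past the threshold of this test. Mean Gata4 and Gata6 were lower at day 4 in clone 5F and higher in clone 7E, where the libraries of both days overlapped. Mean Sox17 was lower in both clones, with overlapping libraries. Skiv2l checked the labels in part, since its count covers the whole gene and not the floxed part alone. In the libraries of clone 5F labelled day 4 the Skiv2l normalized count did not fall (4448, 3855 and 4193, against 4181, 4167 and 4237 at day 0), so any change in this clone is a change between libraries labelled day 0 and day 4. In clone 7E it was 975, 1046 and 910 at day 0 and 409, 392 and 370 at day 4 (edgeR adjusted p = 7.9e-13). Clone 7E thus had less Skiv2l than clone 5F before 4OHT, with a log2 change of -2.10 ± 0.05 (edgeR adjusted p = 1.1e-19), so that the level of Skiv2l also differs between the lines in every comparison of the clones at day 0. Aven was at 1006 to 1019 in clone 5F and 57.0 to 86.6 in clone 7E at day 0.

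The members separated into a detected and a nearly silent part (see the plot of mock levels). Compared per kb of exon over the 12 mock libraries, Irf3 was highest with 248 ± 23.4 normalized counts per kb (SD, n = 12), followed by Mavs (213 ± 37.0), Ddx58 (72.0 ± 6.35) and Ern1 (53.7 ± 3.88). The ranges of Irf3 and Mavs overlapped, whereas those of Mavs and Ddx58, of Ddx58 and Ern1, and of Ern1 and Isg15 did not. Isg15 followed with 6.08 ± 3.10, then Ifit1 (1.96 ± 1.07), Ifih1 (0.631 ± 0.323), Irf7 (0.335 ± 0.351) and Ifit3 (0.279 ± 0.509), each overlapping its neighbour in this order. Irf3 lay above 84.6% and Ern1 above 71.2% of the 34400 genes with any mock count, whereas Ifih1 lay above 23.7%, and Isg15, which is short, above 50.7%.

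**Figure D1:**
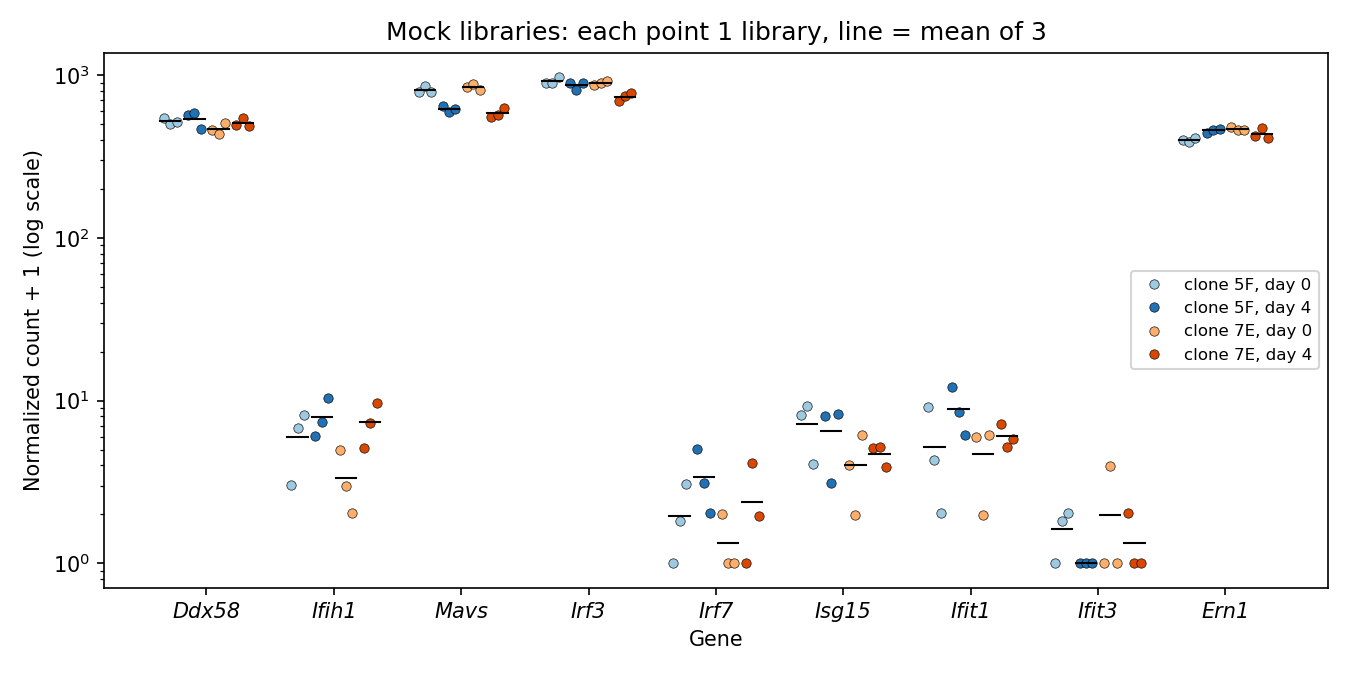
Normalized count + 1 (log axis) of the 9 members in the 12 mock libraries, coloured by clone and day of 4OHT, with each point 1 library and each line the mean of 3. Ddx58, Mavs, Irf3 and Ern1 lie between 387 and 968 normalized counts, and the other 5 members never exceed 11.0.

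The RNA sensors were expressed very unequally. Ddx58 (ENSMUSG00000040296.15, chromosome 4, 40203773 to 40239828, minus strand, GRCm38) had normalized counts of 547, 502 and 514 in clone 5F at day 0 and 565, 580 and 466 at day 4. The ranges of both days overlapped, and the log2 change was 0.05 ± 0.08 (SE; edgeR adjusted p = 0.729, interval of 2 SE either way -0.12 to 0.21). In clone 7E the values were 458, 432 and 510 at day 0 and 492, 540 and 483 at day 4, again overlapping, with a log2 change of 0.11 ± 0.08 (edgeR adjusted p = 0.286, interval -0.05 to 0.28). At day 0, the log2 change of Ddx58 in clone 7E against clone 5F was -0.16 ± 0.07, which was not past the threshold (edgeR adjusted p = 0.0971). Without replicate 3 of clone 7E it was past it (-0.23, edgeR adjusted p = 0.0324).

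Ifih1 (ENSMUSG00000026896.14, chromosome 2, 62595798 to 62646255, minus strand) was close to absent, with 1 to 9 raw counts in each mock library and at most 13 in any of the 47 libraries. The mock libraries held 16 counts in clone 5F at day 0, 20 in clone 5F at day 4, 7 in clone 7E at day 0 and 19 in clone 7E at day 4, summed over 3 libraries. The ratio of day 4 to day 0 was 1.36 in clone 5F, with a 95% interval of 0.671 to 2.81 (exact Clopper-Pearson on the counts, scaled to depth). In clone 7E it was 2.73 (1.10 to 7.69), with libraries at 4.10 to 8.66 normalized counts at day 4 and 1.03 to 4.00 at day 0, which do not overlap. These intervals cover counting error only, and Ifih1 did not pass the filter on low counts for the mock comparisons.

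Mavs fell between day 0 and day 4 in both clones. This gene (ENSMUSG00000037523.13, chromosome 2, 131234063 to 131248025, plus strand) encodes the adaptor on which both sensors converge. In clone 5F its normalized counts were 786, 857 and 786 at day 0 and 641, 596 and 615 at day 4. All 3 libraries of day 4 were below all 3 of day 0, and the log2 change was -0.39 ± 0.07 (edgeR adjusted p = 0.00016). In clone 7E the values were 845, 883 and 805 at day 0 and 555, 567 and 626 at day 4, also without overlap, with a log2 change of -0.53 ± 0.07 (edgeR adjusted p = 1.7e-06). The difference between the clones in this change was -0.14 ± 0.09 (edgeR adjusted p = 0.375), with an interval of -0.33 to 0.04. The summed stem cell markers were lower at day 4 in both clones. The summed endoderm markers were lower at day 4 in clone 5F and higher in clone 7E. Mean Foxa2 was higher and mean Dab2 lower at day 4 in both clones, but the fall of Dab2 was not past the threshold in clone 7E. Mean Gata4 and Gata6 followed the sums, lower at day 4 in clone 5F and higher in clone 7E. Mean Sox17 was lower in both clones. The part of these markers in the fall of Mavs was not tested. At day 0 the log2 change between the clones was not past the threshold (0.06 ± 0.06, edgeR adjusted p = 0.478).

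Irf3 (ENSMUSG00000003184.15, chromosome 7, 44997648 to 45002848, plus strand) encodes the constitutively made factor that is phosphorylated downstream of MAVS. Its normalized counts were 894, 893 and 968 in clone 5F at day 0 and 896, 814 and 896 at day 4, which overlap (log2 change -0.08 ± 0.06, edgeR adjusted p = 0.395, interval -0.21 to 0.05). In clone 7E they were 870, 898 and 917 at day 0 and 696, 741 and 775 at day 4. Every library of day 4 lay below every library of day 0, with a log2 change of -0.28 ± 0.07 (edgeR adjusted p = 0.0015). The stem cell markers were lower at day 4 in the same libraries, and their part in the fall of Irf3 was not tested. The change in clone 7E was past the threshold and that in clone 5F was not, but the test of the difference between them was not past it either (-0.20 ± 0.09, edgeR adjusted p = 0.153). Irf3 shares 88 exonic bases with Bcl2l12 on the opposite strand, and the libraries do not keep the strand, so reads from these bases cannot be told apart.

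Irf7 (ENSMUSG00000025498.15, chromosome 7, 141262706 to 141266481, minus strand) encodes the factor that interferon itself induces to amplify the response. It had 15 raw counts over all 12 mock libraries and none in 4 of them, and at most 4 in any library. Clone 5F held 3 counts at day 0 and 7 at day 4 (ratio 2.54, counting interval 0.581 to 15.3), and clone 7E 1 and 4 (4.03, 0.398 to 198). These intervals do not separate the days. Irf7 shares 45 exonic bases with Phrf1 on the opposite strand, so even these counts are uncertain.

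The interferon-stimulated members stayed at a few counts in all 4 mock groups. Isg15 (ENSMUSG00000035692.6, chromosome 4, 156199424 to 156200818, minus strand), a ubiquitin-like protein that is conjugated to other proteins, had 20 raw counts in clone 5F at day 0 and 16 at day 4 over 3 libraries, a ratio of 0.872 (counting interval 0.423 to 1.77). In clone 7E it had 9 and 11, a ratio of 1.23 (0.463 to 3.36). Ifit1 (ENSMUSG00000034459.8, chromosome 19, 34640871 to 34650009, plus strand), which binds foreign RNA 5′ ends, had 13 and 23 counts in clone 5F (1.93, 0.937 to 4.15) and 11 and 15 in clone 7E (1.37, 0.589 to 3.30). Ifit3 (ENSMUSG00000074896.3, chromosome 19, 34583531 to 34588731, plus strand), its partner protein, had 2 counts at day 0 and 0 at day 4 in clone 5F, and 3 and 1 in clone 7E, and was at 0 in 37 of 47 libraries. Each of these intervals contains a ratio of 1, so a rise above 4.15-fold in the mock level with day lies outside the counting interval for Isg15 and Ifit1 in either clone. Between the clones at day 0, the ratio of clone 7E to clone 5F was 0.477 (0.191 to 1.10) for Isg15 and 0.896 (0.364 to 2.17) for Ifit1.

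Ern1 (ENSMUSG00000020715.9, chromosome 11, 106394650 to 106487852, minus strand) was the member that differed between the clones before 4OHT. Its normalized counts at day 0 were 399, 387 and 410 in clone 5F and 477, 459 and 462 in clone 7E. All 3 libraries of clone 7E were higher, with a log2 change of 0.23 ± 0.07 (edgeR adjusted p = 0.0134). Without replicate 1 of clone 7E the change was 0.21 and missed the threshold (edgeR adjusted p = 0.0532). The summed endoderm markers, which were lower in clone 7E in all 5 of 5 genes, moved with the same contrast, and their part in the Ern1 difference was not tested. At day 4 the counts were 442, 461 and 464 in clone 5F, above all libraries of day 0, but the log2 change of 0.19 ± 0.07 was not past the threshold (edgeR adjusted p = 0.0580). In clone 7E they were 421, 473 and 409, with a log2 change of -0.10 ± 0.08 (edgeR adjusted p = 0.331). The difference between these changes was -0.30 ± 0.10 (edgeR adjusted p = 0.0581), and without replicate 2 of clone 7E at day 4 it was -0.36 (edgeR adjusted p = 0.0238).

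In counts, 4 of the 9 members passed the filter on low counts in the mock comparisons. Among these, 0 rose and 1 fell in clone 5F, against 12.8% of all genes tested that rose and 11.6% that fell. In clone 7E 0 rose and 2 fell, against 20.7% and 19.4%. Between the clones at day 0, 1 was higher and 0 lower in clone 7E, against 20.0% and 19.7%. For the difference between the clones in the change with day, 0 of 4 members were called, against 11.9% of all genes, and 2 of the 4 had an unadjusted p under 0.05 (Irf3 with 0.0318 and Ern1 with 0.0075). DESeq2 likewise called 0 members there.

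**Figure D2:**
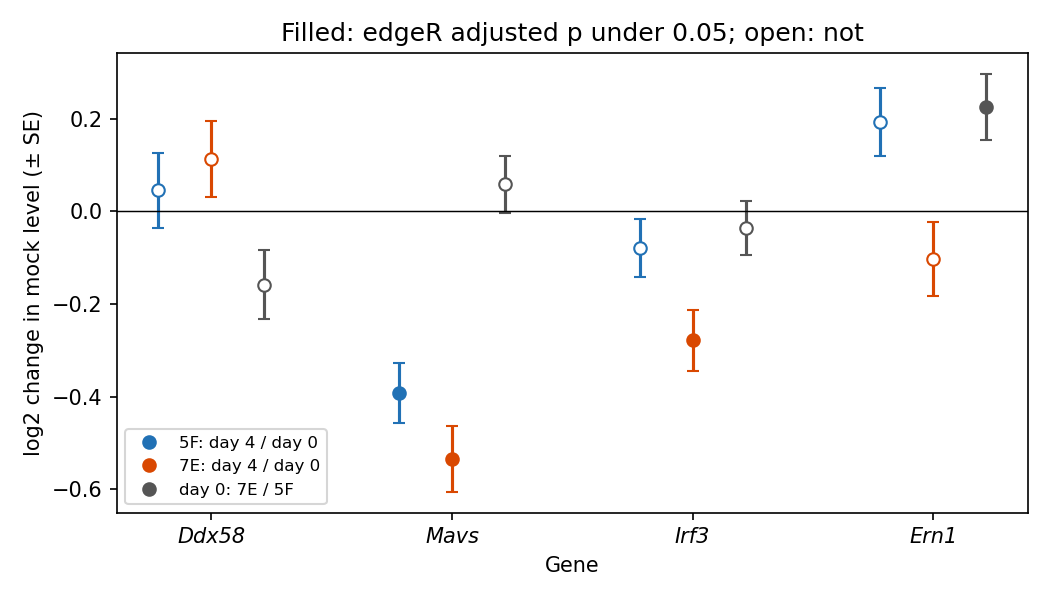
Log2 change in mock level (points) with SE (bars) of the 4 members that passed the filter, for day 4 against day 0 in each clone and for clone 7E against clone 5F at day 0, with filled points where the edgeR adjusted p was under 0.05. Mavs is filled for both clones (-0.39 and -0.53), Irf3 for clone 7E (-0.28) and Ern1 for the clones at day 0 (0.23).

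These changes are relative to the bulk of mRNA in each library. ERCC spike-in counts were 189084 to 200706 in the mock libraries of clone 7E at day 4 and 78027 to 94216 in the other 9. When each library was scaled to its own spike-ins, the median log2 change of all genes in clone 7E with day was -1.11, with 258 genes higher and 14716 lower in place of 3381 and 3170. On that scale Mavs changed by -1.63, Irf3 by -1.38, Ern1 by -1.20 and Ddx58 by -0.98, so the sign for Ddx58 turned and all 4 were past the threshold. In clone 5F the median shift was -0.07, with 1063 genes higher and 2351 lower in place of 2095 and 1903, and Mavs was at -0.46. Between the clones at day 0 it was -0.17, with 1618 higher and 6291 lower in place of 3258 and 3219, and there Ern1 was at 0.07 and no longer past the threshold, while Ddx58 (-0.32) and Irf3 (-0.20) were. For the difference between the clones it was -1.03, with 54 genes higher and 14318 lower in place of 1145 and 911. Fewer cells and less RNA per cell cannot be told apart in these bulk samples.

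The genes around the members were described from lists of the same pathways. All 20 other genes of RNA and DNA sensing had a mean of at least 10 raw counts in the mock libraries. The highest per kb were Tax1bp1 (749), which restrains signalling from MAVS, Trim25 (625), the ubiquitin ligase that acts on RIG-I, and Tbk1 (433), the kinase of IRF3. In clone 5F with day, 1 of 20 rose (Trim25, log2 change 0.15) and 2 fell (Eif2ak2, -0.19, the kinase PKR, and Tbk1, -0.19), against 12.8% and 11.6% of all genes tested, and the list's median was -0.01, as it was for all genes. In clone 7E 4 of 19 rose and 4 fell, close to the 20.7% and 19.4% of all genes (median -0.04 against -0.01), among them Ikbke (1.24, a further IRF3 kinase), Irf5 (-0.80) and Dhx58 (-0.64, the sensor LGP2). At day 0, 6 of 20 were higher and 2 lower in clone 7E, against 20.0% and 19.7% of all genes (median 0.06 against -0.01), led by Ikbke (-1.31), Tmem173 (1.20, the adaptor STING) and Nlrx1 (1.00).

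The 5 interferon genes tested for presence, Ifnb1, Ifna2, Ifna4, Ifnl2 and Ifnl3, had 0 counts in every one of the 47 libraries. Their receptor and kinase genes were present: of 6 tested, 0 rose and 4 fell in clone 5F with day, where 11.6% of all genes fell, and 0 rose and 2 fell in clone 7E, where 19.4% fell. The receptor subunit Ifnar1 went from 1986 ± 64.7 to 1731 ± 60.9 normalized counts (SD, n = 3) in clone 5F (log2 change -0.20, edgeR adjusted p = 0.0071). The largest change of this list in clone 5F was that of Il10rb (-1.03, edgeR adjusted p = 0.0057). It went from 37.4 ± 4.44 to 18.3 ± 4.79 normalized counts (SD, n = 3). Ifnlr1 fell in both clones (-0.34 and -0.95), as did the kinase gene Tyk2 (-0.22 and -0.37). The medians of this list were -0.21 and -0.26, against -0.01 for all genes tested in each clone.

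Other interferon-stimulated genes did not move one way. Of 43 listed, 32 had a mean of at least 10 raw counts in the mock libraries, led per kb by Ifitm3 (1260), Ifitm1 (872) and Bst2 (614), which encode membrane proteins that restrict viruses. In clone 5F 2 of 32 tested rose and 3 fell, against 12.8% and 11.6% of all genes, and the list's median was -0.02 against -0.01 for all genes. Rnf213, a large ubiquitin ligase, was the largest of these (3142 ± 198 to 5731 ± 246, SD, n = 3, log2 change 0.87, edgeR adjusted p = 7.9e-11), followed by Xaf1 (0.52), Tap1 (-0.28) and Irf9 (-0.28). In clone 7E 8 of 31 rose and 5 fell, against 20.7% and 19.4% of all genes (median -0.03 against -0.01). The largest changes among genes with a mean of at least 20 were Gbp2 (1.46), Ube2l6 (1.38, the conjugating enzyme of ISG15), Xaf1 (0.87) and Rnf213 (0.80), and with each library's own spike-ins Xaf1 (-0.22) and Rnf213 (-0.30) turned. At day 0, 8 of 30 were higher and 12 lower in clone 7E, against 20.0% and 19.7% of all genes (median -0.14 against -0.01). By the same minimum mean, the largest changes were those of Gbp2 (-2.12), Oas1a, Psmb8 (-1.05) and Ifi35 (-0.97), in this order. All of these were lower in clone 7E, and none of the 8 higher genes was among them. The fibroblast markers Col1a1, Col1a2, Col3a1, Thy1, Pdgfra and Postn summed to 116 to 137 in clone 7E at day 0, 207 to 255 at day 4 and 794 to 877 in clone 5F, and 1 of 6 (Postn) was at or near 0 in every mock library. Most of the sum in clone 5F was Pdgfra (671 ± 43.4 at day 0 and 577 ± 17.7 at day 4), which was at 56.3 ± 6.35 in clone 7E at day 0 (SD, n = 3). The endoderm markers, among them Gata4 (1034 and 93.8) and Gata6 (398 and 36.9), were likewise all higher in clone 5F at day 0. Mean Col1a1, Col1a2 and Col3a1 were at 54.7, 19.4 and 13.1 in clone 5F at day 0. The sum therefore cannot be read as a content of fibroblasts. Of 5 fibroblast markers tested with day, 2 rose and 1 fell in clone 5F, against 12.8% and 11.6% of all genes. In clone 7E 3 rose and 0 fell, against 20.7% and 19.4%. Of the immune cell markers Ptprc was at 1.34 ± 1.53 in clone 7E at day 0 and 17.5 ± 8.01 at day 4 (SD, n = 3), and the 5 markers summed to 381 to 457 in clone 7E and 602 to 665 in clone 5F, nearly all of it Cd68. The part of cells with any of these markers in these changes was not tested.

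Single genes of the unfolded protein response, to which Ern1 belongs, changed with day. In clone 5F 3 of 21 rose and 7 fell, against 12.8% and 11.6% of all genes (median -0.13 against -0.01). In clone 7E 3 rose and 5 fell, which is near the 20.7% and 19.4% of all genes (median -0.04). Ddit3, which encodes the stress-induced factor CHOP, went from 90.2 ± 9.79 to 244 ± 31.8 in clone 5F (SD, n = 3, log2 change 1.43, edgeR adjusted p = 4.8e-08) and from 94.9 ± 26.3 to 437 ± 42.9 in clone 7E (2.20, edgeR adjusted p = 3.4e-12). Herpud1, of the degradation machinery of the endoplasmic reticulum, rose in both as well (0.36 and 1.07), whereas the chaperone gene Hspa5 fell in both (-0.47 and -0.41). At day 0, 2 of 21 were higher and 10 lower in clone 7E, against 20.0% and 19.7% of all genes (median -0.15 against -0.01), with Atf6, a further sensor of the endoplasmic reticulum, at 0.44 and Hspa5 at -0.40. With each library's own spike-ins the sign turned in clone 7E for Herpud1 (-0.027) and Atf6 (-0.66 in place of 0.44). The comparison of the clones shares its day 0 libraries with the comparisons by day.

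**Figure D3:**
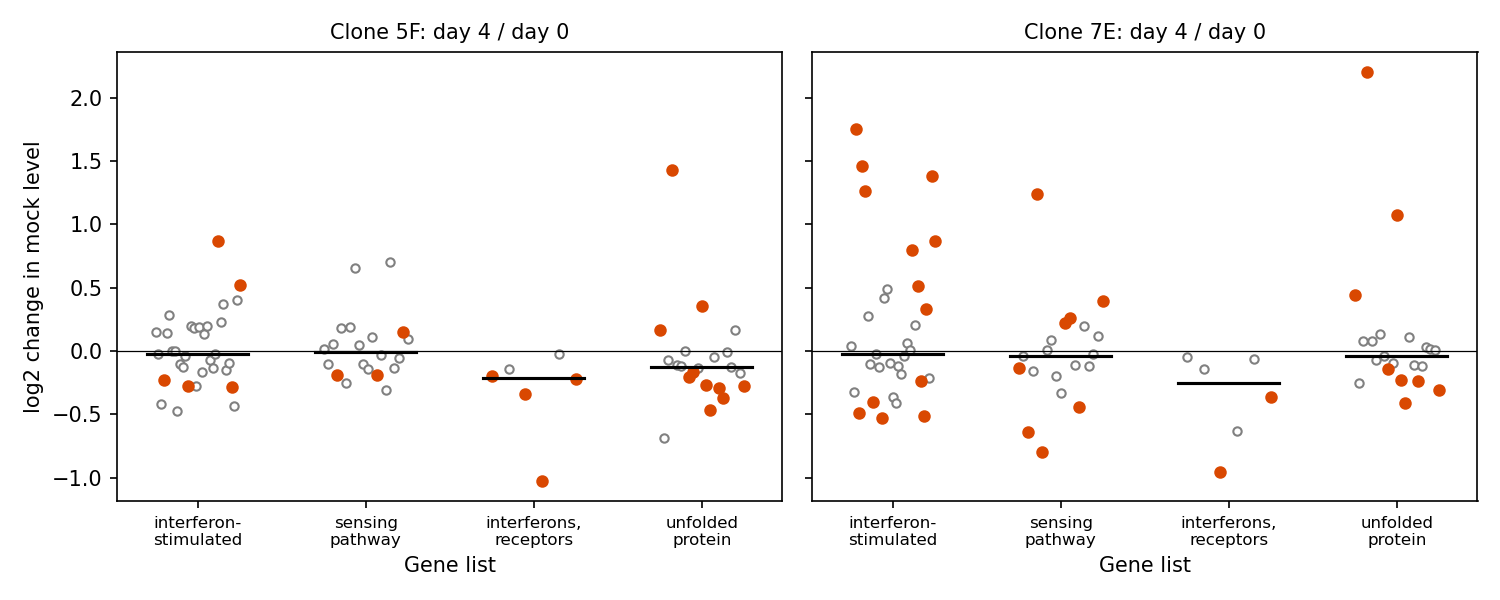
Log2 change in mock level from day 0 to day 4 in clone 5F (left) and clone 7E (right) for each tested gene of 4 pathway lists, in filled points where the edgeR adjusted p was under 0.05, with the list's median as a line. The medians of the interferon-stimulated genes are -0.02 and -0.03, and single genes such as Rnf213 (0.87 and 0.80) and Ddit3 (1.43 and 2.20) stand above them.

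Among the actinomycin D libraries, 6 had 0.232% to 0.385% of counts from mitochondrial rRNA, where the other libraries of their groups had 1.33% to 3.58%. In the remaining actinomycin D groups the lowest library had 0.577% to 0.731%, against 1.34% to 3.38% in the others. All groups of a time point had their lowest share in the same replicate number, which differed between time points. The 6 libraries are thus the lower part of a pattern that runs through every group. Replicate pairs that include 1 of the 6 differed with a chi-square per gene of 35.0 to 94.0. This compares with 3.45 to 48.0 for the other actinomycin D pairs and 2.59 to 12.2 for mock pairs. Mavs and Ern1 were lower in all 6 of these libraries than in every other library of the same group, whereas Irf3 was above the others in 4 and below in 1, and Ddx58 above in 2 and below in 1. The largest gap was that of Ern1 in clone 5F at day 4 and 120 min, with 82.8 normalized counts against 139 and 140. The part of the 6 libraries in the decay values was not tested beyond leaving them out. That alternative was chosen after seeing the data, and its values are given beside the results. It keeps the lowest libraries of the remaining groups, so it removes the pattern only in part.

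Decay after actinomycin D could be followed for the 4 detected members, which fell at different speeds (see the plot of decay courses). Values are percentages of the mean mock level of the same clone and day, after scaling between time points with the spike-ins. Ddx58 was the most persistent, with 89.8%, 80.5% and 60.4% left at 120, 240 and 360 min in clone 5F at day 0, where the median of 13407 genes was 58.2%, 47.4% and 39.3%. At 360 min it had 51.6% left in clone 5F at day 4, 54.3% in clone 7E at day 0 and 41.0% in clone 7E at day 4. It lay above 82.4%, 71.4%, 77.4% and 54.8% of genes, in that order of groups.

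Mavs, Irf3 and Ern1 lost most of their mock level within the first 120 min, after which Mavs and Irf3 fell little and Ern1 about as much as the median gene. Mavs had 28.7%, 21.1% and 22.9% left at 120, 240 and 360 min in clone 5F at day 0, and 41.4%, 33.1% and 33.1% in clone 7E at day 4. Irf3 had 42.9%, 37.8% and 37.7% left in clone 5F at day 0, and 40.4%, 34.4% and 42.0% in clone 7E at day 4. Ern1 had 23.9%, 16.3% and 17.2% left in clone 5F at day 0, and 30.6%, 20.8% and 18.3% in clone 7E at day 4. From 120 to 360 min, Irf3 changed by -0.19, -0.09, -0.15 and 0.06 on the log2 scale in clone 5F at day 0 and day 4 and clone 7E at day 0 and day 4, where the medians of all genes were -0.53, -0.55, -0.56 and -0.57. The change of Mavs in this interval was -0.32, -0.21, -0.38 and -0.32, and that of Ern1 -0.47, -0.55, -0.66 and -0.74. Irf3 and Mavs thus fell less than the median gene in all 4 groups in this interval, whereas Ern1 was near it in clone 5F and fell more in clone 7E. Without the 6 libraries low in mitochondrial rRNA, the percentages left moved most for Ern1 in clone 5F at day 4 and 120 min (26.5% to 30.7%) and for Mavs in clone 7E at day 4 and 360 min (33.1% to 36.4%).

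**Figure D4:**
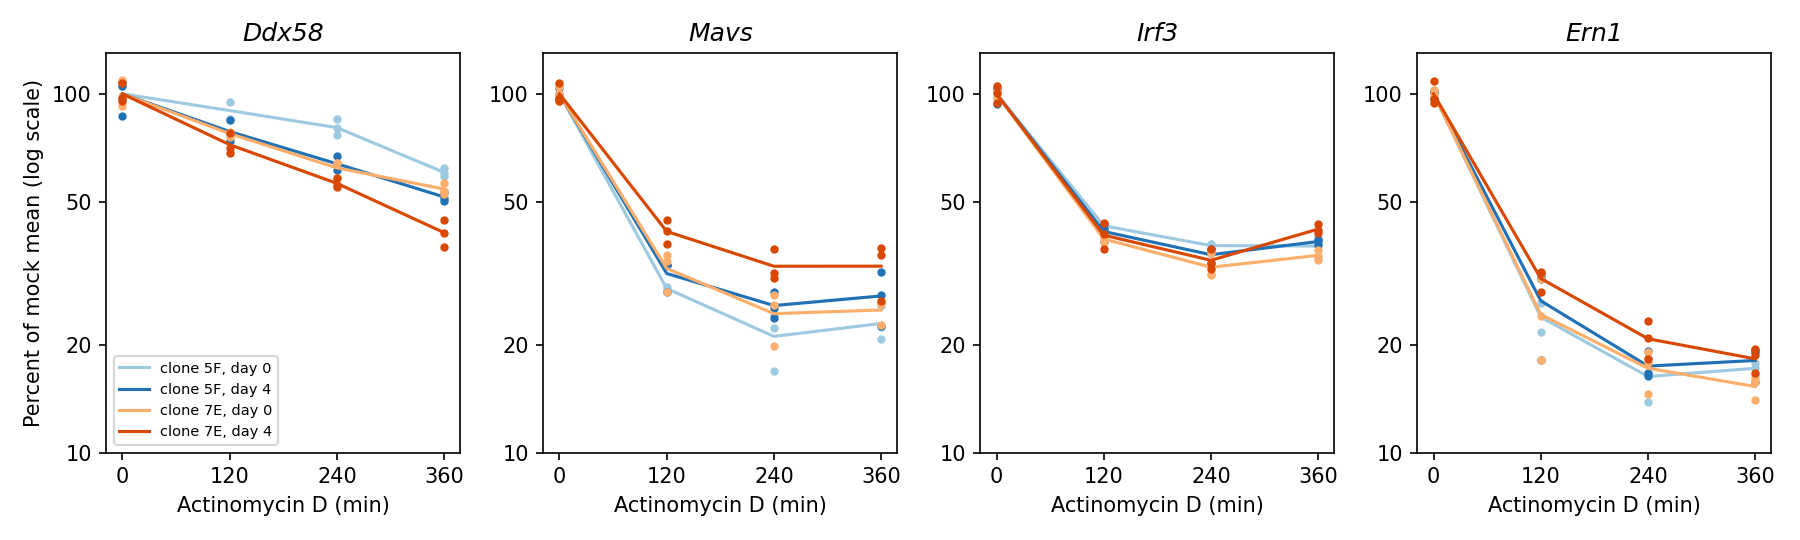
Percent of the mean mock level (log axis) against minutes of actinomycin D for the 4 detected members, with each point 1 library and lines through the means of each clone and day. Ddx58 declines steadily to between 41.0% and 60.4% at 360 min, whereas Mavs, Irf3 and Ern1 drop to between 23.9% and 42.9% by 120 min. Mavs and Irf3 then level off. Ern1 falls on to between 16.3% and 20.8% at 240 min and lies between 15.3% and 18.3% at 360 min. In clone 5F it falls no further from 240 to 360 min (16.3% and 17.2% at day 0, 17.4% and 18.1% at day 4).

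Because of this shape, half-lives from a straight line through all 4 time points describe Ddx58 better than the others. For Ddx58 the fitted half-life was 517 min in clone 5F at day 0 (465 to 584 for 1 SE of the slope), 383 min at day 4 (355 to 416), 407 min in clone 7E at day 0 (379 to 440) and 285 min at day 4 (271 to 302). For Mavs it was 170, 202, 187 and 234 min, for Irf3 263, 279, 253 and 302 min, and for Ern1 143, 151, 140 and 152 min in the same order of groups. The order of the members, Ern1 shortest and Ddx58 longest, was the same in 3 of the 4 groups, and in clone 7E at day 4 Irf3 (234 to 426 min for 1 SE) and Ddx58 (271 to 302 min) changed places within their errors. Without the 6 libraries low in mitochondrial rRNA, Irf3 (265 min) was below Ddx58 (277 min) in that group too. Without the mock libraries the fitted half-lives of Mavs were 633 to 1107 min, those of Ern1 325 to 578 min, and that of Irf3 in clone 7E at day 4 had no meaning because the slope was positive.

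No member changed its decay past the threshold. In clone 7E the difference in the decay slope of Ddx58 between day 4 and day 0 was -0.06 ± 0.02 log2 per hour (SE), with an unadjusted edgeR p of 0.0068 and an adjusted p of 0.236, and DESeq2 gave an adjusted p of 0.0499 for the same change (-0.06). In clone 5F the change was -0.04 ± 0.02 log2 per hour (edgeR adjusted p = 1), and the difference between the clones was -0.02 ± 0.03 (edgeR adjusted p = 1). Without the 6 libraries low in mitochondrial rRNA the value in clone 7E was -0.07 (edgeR adjusted p = 0.178), and 0 members were called in any decay comparison. For Mavs the changes were 0.05 ± 0.08 in clone 5F and 0.07 ± 0.07 in clone 7E, for Irf3 0.01 ± 0.06 and 0.04 ± 0.07, and for Ern1 0.02 ± 0.09 and 0.04 ± 0.08 log2 per hour. The lowest of these 6 edgeR adjusted p-values was 0.879. In the comparison of the clones at day 0 the 4 members lay between -0.03 and 0.03 log2 per hour. Decay with day differed for 0.196% of all genes in clone 5F and 0.907% in clone 7E, between the clones at day 0 for 0.0394%, and between the clones in the change with day for 0% (0 genes with edgeR, 479 at an unadjusted p under 0.05, 4 with DESeq2 and 0 with limma-voom). With only the mock and 120 min libraries, an alternative chosen after seeing the data, Mavs and Ern1 in clone 7E had changes of 0.17 and 0.17 log2 per hour (edgeR adjusted p = 0.238 and 0.441). Of the 4 pathway lists, 1 gene was called in any of the decay comparisons, Tap1 in clone 7E with day (0.19 ± 0.04 log2 per hour, edgeR adjusted p = 0.0288), and with the mock and 120 min libraries alone its change of 0.11 missed the threshold, as did that of 0.17 without the 6 libraries low in mitochondrial rRNA (edgeR adjusted p = 0.0938).

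The 5 low members gave too few counts for a decay fit. Their summed raw counts in a library were 7 to 27 in mock and 1 to 20 under actinomycin D. Ifih1 passed the filter on low counts for decay in clone 5F, with a change of 0.19 ± 0.17 log2 per hour (edgeR adjusted p = 1). None of the low members rose in any time course beyond 13 raw counts in a library. In clone 7E at day 4, Isg15 had 0 raw counts in every library at 120 min, 4, 3 and 3 at 240 min, and 0, 0 and 1 at 360 min. Ifit1 had 0 in every library, then 5, 2 and 2, then 0, 0 and 2. In no other group did the mean of either gene rise by as much from 120 to 240 min. What lies behind these few counts was not tested.

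The mock profiles of the detected members were compared with 14317 genes over the 12 mock libraries by Pearson's r of log2(normalized count + 1), as a description in which libraries of a group share their clone and day. Most like Mavs were Dido1 (0.975) and Fndc4 (0.972), most like Irf3 were Qdpr (0.970) and Tcl1 (0.970), most like Ddx58 were Rbbp8 (0.930) and Arih1 (0.882), and most like Ern1 were Cdk12 (0.905) and Glrx2 (0.896).

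Binding of decay factors was deposited for 3 of the 9 members, Mavs, Irf3 and Ern1, in a table of 7240 mRNAs. CRAC maps RNA fragments that UV light crosslinks to a tagged protein, here the nuclear exosome helicase MTR4, SKIV2L, the 5′–3′ exonuclease XRN1 and AVEN. The authors' pooled values are ratios to the sum over MTR4, SKIV2L and XRN1, so a high share for any of these factors lowers the other shares. AVEN is not part of that sum, so its ratio does not lower them. No replicate error is attached. Mavs had a ratio of 0.465 for XRN1, above 76.9% of mRNAs, 0.281 for MTR4 and 0.254 for SKIV2L. Irf3 and Ern1 instead had their highest ratio for MTR4, 0.455 and 0.497, above 74.4% and 79.2% of mRNAs. For SKIV2L the ratios were 0.254 (Mavs), 0.257 (Irf3) and 0.189 (Ern1), at or below the median of 0.267, and for AVEN 0.168, 0.245 and 0.215, below the median of 0.295. The authors' median RPKM over the tagged lines was 15.2 for Irf3, 12.8 for Mavs and 2.06 for Ern1, the last above 3.31% of the listed mRNAs. Of the other interferon-stimulated genes 4 of 43 were listed, and of the unfolded protein response 18 of 21.

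**Figure D5:**
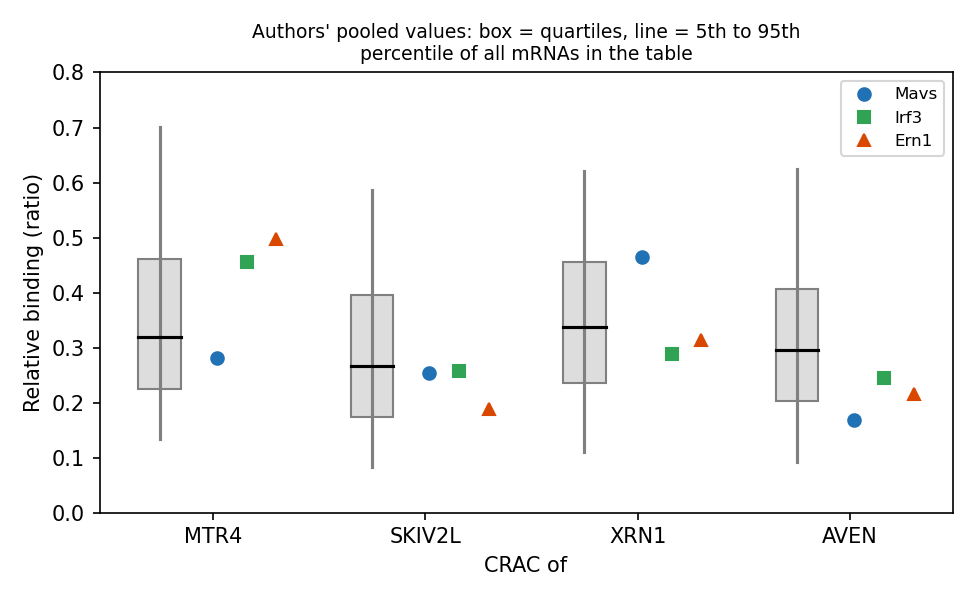
Relative CRAC binding (authors' pooled ratios) of Mavs, Irf3 and Ern1 to MTR4, SKIV2L, XRN1 and AVEN, beside the quartiles (box), median and 5th to 95th percentile (line) of 7240 mRNAs. Mavs is above the upper quartile for XRN1 (0.465), Ern1 for MTR4 (0.497), and all 3 lie below the median for SKIV2L and AVEN.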

How the data were processed

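Total RNA of mESCs was depleted of ribosomal RNA, sequenced without strand and with ERCC spike-ins. The authors mapped the reads with STAR to GRCm38 and deposited raw counts per gene without normalization. For CRAC, the authors scaled and pooled their libraries and deposited each mRNA's binding as a ratio. The RPKM columns in the same deposited table describe mRNA levels in the lines that carry tagged proteins. Depth behind these pooled values is unknown. A file of fitted half-lives and the authors' own fold changes and adjusted p-values were not used. All columns of counts were matched to samples by the number in their name, and 0 were left unused.

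The software was DESeq2 1.42.0, limma 3.58.1 and edgeR 4.0.16, run under R 4.3.3. Libraries of the same time point were scaled by DESeq2 size factors, which were then joined to 1 spike-in factor per time point (1, 0.649, 0.531 and 0.438 for mock, 120, 240 and 360 min), which is the median over libraries of the ratio of summed gene counts to the summed counts of 34 ERCC sequences with a mean above 50, relative to mock. Normalized counts are counts after this scaling. Genes kept by filterByExpr were tested with edgeR's quasi-likelihood test and Benjamini-Hochberg adjustment over all genes kept, at a threshold of 0.05. Mock levels were compared by day and by clone, and decay by the interaction of time in hours with day or clone. Half-lives were fitted as -ln(2)/slope of ln(normalized count + 1) on minutes where the mean raw mock count was at least 30 and the slope more than 2 SE below 0. Counting intervals are exact (Clopper-Pearson, 95%) on summed raw counts and cover counting error only. The chi-square per gene between replicate libraries was 2.59 to 94.0, so no library was a copy of another. The replicate numbers were not used to pair the samples. The scripts were tested on simulated data.

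Gene symbols and lengths are from Gencode M21 of GRCm38, a later release than the authors' own on the same build. Members and gene lists were chosen with earlier results of these data known. Besides the members and the targeted genes, at most 4 genes per list and comparison are named, those with the largest change among the called genes with a mean normalized count of at least 20, as well as the 2 genes most like each detected member and the 3 highest per kb of 3 lists. Ptprc, Postn and Cd68 were named after their values were seen, and the single endoderm and fibroblast markers given with values were picked then too. Alternatives were TMM, each library's own spike-ins, other filters, DESeq2, limma-voom, a replicate block, other sets of time points (that of mock and 120 min only was added after seeing the data, as was leaving out 6 libraries with under 0.4% mitochondrial rRNA) and leaving out each replicate.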

Additional observations from a re-analysis of the deposited data

Results flagged for a closer look

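For none of the 9 members was the difference between the clones in the change with day past the threshold. Among the other named genes, the test of that difference (edgeR's quasi-likelihood test, interaction of clone and day over the 12 mock libraries) was past it for 11. Relative to clone 5F, the log2 change with day in clone 7E was higher for the kinase gene Ikbke by 1.06 (adjusted p = 0.0309), for Zc3hav1 by 0.30 (adjusted p = 0.0103), for Gbp2 by 1.31 (adjusted p = 1.9e-05) and for Tap1 by 0.61 (adjusted p = 0.0054). It differed by -0.42 for Stat2 (adjusted p = 0.0244) and by -0.61 for Ifnlr1 (adjusted p = 0.0441). In the unfolded protein response it was higher for Ddit3 by 0.78 (adjusted p = 0.0167), for Herpud1 by 0.71 (adjusted p = 5.8e-05), for Atf6 by 0.27 (adjusted p = 0.0102) and for Pdia6 by 0.19 (adjusted p = 0.0378). With each library's own spike-ins, where the median of all genes was -1.03, the sign turned for Zc3hav1 (-0.73), Tap1 (-0.42), Ddit3 (-0.25), Herpud1 (-0.32), Atf6 (-0.76) and Pdia6 (-0.84). For Skiv2l the difference was -1.31 (adjusted p = 4.4e-10). Gbp2 had 213 ± 11.9 and 236 ± 30.4 normalized counts (SD, n = 3) at day 0 and day 4 in clone 5F, and 48.9 ± 4.90 and 135 ± 9.97 in clone 7E. Its level in clone 7E at day 4 was below that of clone 5F on both days.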

How the results depend on the processing

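Mavs in both clones and Irf3 in clone 7E kept their direction and stayed past the threshold with day in all 14 alternatives. Low counts limit the other results: 5 members had no more than 13 counts in any library, and the replicates are technical. With each library's own spike-ins, 14974 genes were called in clone 7E with day and 14372 for the difference between the clones, with 4 members called in each, and 2 members were called between the clones at day 0. On this scale the sign turned in clone 7E with day for Ddx58 (-0.98), Atf6 (-0.66), Herpud1 (-0.027), Rnf213 (-0.30) and Xaf1 (-0.22), and for the difference between the clones for Ddx58 (-0.96), Atf6 (-0.76), Ddit3 (-0.25), Herpud1 (-0.32), Pdia6 (-0.84), Tap1 (-0.42) and Zc3hav1 (-0.73), which follows from the shift of all genes on that scale. In the mock libraries, deviations of same-numbered libraries correlated by 0.092, 0.171 and 0.096 between the clones at day 0, not each over 0.1. Other numbers reached at most 0.023 there, so same-numbered libraries of the clones shared some variation. Between the days the correlations were -0.158 to 0.006. The main fits do not pair the samples. This correlation was not computed under actinomycin D, where the lowest share of mitochondrial rRNA went with the replicate number. With the replicate block 2 members were called between the clones at day 0, Ern1 and Ddx58 (-0.16, edgeR adjusted p = 0.0294), and 8108 genes in place of 6477. Leaving out 1 replicate gave 0 to 2 members there and 0 to 1 for the difference between the clones.

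Counts of genes with changed decay were small and moved with the setting, and the cause was not tested. For day in clone 5F, 35 genes became 19 with own spike-ins, 14 without the mock libraries, 65 with mock and 120 min only, and 11 to 24 when 1 replicate was left out. For day in clone 7E, 158 became 105 with own spike-ins, 273 with DESeq2 (1 member, Ddx58), 86 without 360 min, and 80 to 103 when 1 replicate was left out. Between the clones at day 0, 7 became 2, 40, 23, 1, 30 and 17 with own spike-ins, DESeq2, without the mock libraries, without 360 min, with mock and 120 min only and without the 6 libraries low in mitochondrial rRNA, and 0 to 10 when 1 replicate was left out. For the difference between the clones, 0 became 1 with own spike-ins, 4 with DESeq2, 5 without the mock libraries 15 with mock and 120 min only and 5 without the 6 libraries. Without the mock libraries the half-lives of Ddx58 at day 0 were 408 min in clone 5F and 469 min in clone 7E. In the order clone 5F day 0, day 4, clone 7E day 0, day 4, they were then 848, 1107, 633 and 720 min for Mavs, 1362, 2633, 1581 and -4112 min for Irf3 (the last from a rising slope, so no half-life) and 578, 468, 381 and 325 min for Ern1. With own spike-ins those of clone 7E at day 4 were 341 min for Irf3 and 162 min for Ern1. Without the 6 libraries, that of Irf3 at day 4 was 248 min in clone 5F and 265 min in clone 7E, and that of Ern1 144 min in clone 7E at day 4.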
